A study of Mus musculus with 4 samples.

Results

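The genes described here encode the vacuolar proton pump (V-ATPase) and its accessory proteins, and the cathepsins, the proteases that work in the acid compartment the pump creates. They were chosen by symbol: all rows beginning Atp6v or Atp6ap, and all rows formed of Cts and further letters or digits, except Atp6v0d2, Ctsk and Ctsg, 3 genes known from osteoclasts or neutrophils. The rule found 46 of the 22700 rows in the files. Of these, 30 reached 20 normalised reads in at least 1 library, as did 13642 of all rows, and folds are given for those 30 only.

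RNA was sequenced from marrow cultures of 12-week-old male mice. Diabetic donors were db/db mice (BKS.Cg-m+/+leprdb/J in the labels) and control donors were their db/+ littermates (BKS.Cg-m+/+leprdb+/J). The db allele disrupts the leptin receptor gene Lepr, and the strain name also carries the allele m at another locus. Marrow of each genotype was grown for 7 to 8 days in 20 ng/ml of GM-CSF or in 10 ng/ml of M-CSF, growth factors that both yield macrophages and that yield cells of different character. The 4 groups are db/db GM-CSF, db/+ GM-CSF, db/db M-CSF and db/+ M-CSF, with 1 library each. The sources used here do not say whether a library came from 1 mouse or several. A difference between a pair of libraries therefore has no replicate check, and the RNA comes from whole cultures, in which fewer cells of a type and less RNA per cell cannot be told apart.

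Vacuolar proton pumps consist of a soluble V1 sector, which hydrolyses ATP, and a membrane V0 sector, through which protons enter the lysosome, endosome or phagosome. Many subunits exist as isoforms, some found in nearly all cells and others restricted to kidney, testis, nerve or bone. Cathepsins are made as inactive precursors and become active when the compartment acidifies. In macrophages they degrade engulfed material and cut antigens and the invariant chain for presentation on MHC class II. Many genes of both groups carry the sequence CACGTG near their start, the core of the site bound by TFEB and its relatives in human and mouse cells.

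Promoter windows, from 250 bases before to 50 bases after an annotated start, were read from RefSeq (build GRCm38.p6) for 20 of the 30 genes, in 24 windows. Cathepsin D, the cathepsin with the most reads in GM-CSF, had 2 copies of CACGTG, shown in capitals. Cathepsin S, which was also higher in GM-CSF, had none, and the capitals in its window mark the related sequence TCATGTGA. Cathepsin C, which was lower in GM-CSF, had neither. These windows are shown because the genes differ in direction between the cultures and in these letters.
Ctsd (chr7:142387778-142388077, minus strand): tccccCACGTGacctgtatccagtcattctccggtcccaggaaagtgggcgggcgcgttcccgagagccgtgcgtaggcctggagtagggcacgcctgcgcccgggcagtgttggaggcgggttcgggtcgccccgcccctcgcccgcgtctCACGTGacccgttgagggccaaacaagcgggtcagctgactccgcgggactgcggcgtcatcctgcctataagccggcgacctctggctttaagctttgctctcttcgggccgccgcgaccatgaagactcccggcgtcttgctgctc
Ctss (chr3:95526536-95526835, plus strand): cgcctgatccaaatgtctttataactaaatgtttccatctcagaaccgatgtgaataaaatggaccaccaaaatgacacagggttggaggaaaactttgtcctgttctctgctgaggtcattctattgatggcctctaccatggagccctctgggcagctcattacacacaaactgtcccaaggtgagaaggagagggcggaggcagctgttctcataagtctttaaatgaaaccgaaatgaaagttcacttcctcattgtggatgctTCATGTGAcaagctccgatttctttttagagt
Ctsc (chr7:88277835-88278134, plus strand): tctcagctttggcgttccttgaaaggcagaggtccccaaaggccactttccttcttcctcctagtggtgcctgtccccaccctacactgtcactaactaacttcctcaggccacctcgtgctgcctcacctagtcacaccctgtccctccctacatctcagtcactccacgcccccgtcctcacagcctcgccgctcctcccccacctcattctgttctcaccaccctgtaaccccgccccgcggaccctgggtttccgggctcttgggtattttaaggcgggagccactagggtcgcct

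The other genes with CACGTG in a window are shown as stretches of 60 bases around it, with the match in capitals, so that the flanking bases can be compared.
Ctsa (chr2:164833742-164833801, plus strand): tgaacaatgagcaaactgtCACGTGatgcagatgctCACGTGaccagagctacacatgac
Ctsl (chr13:64370711-64370770, minus strand): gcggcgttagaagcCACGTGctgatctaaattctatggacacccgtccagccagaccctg
Ctsf (chr19:4855059-4855118, plus strand): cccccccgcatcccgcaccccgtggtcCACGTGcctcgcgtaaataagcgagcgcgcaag
Atp6v1a (chr16:44139358-44139417, minus strand): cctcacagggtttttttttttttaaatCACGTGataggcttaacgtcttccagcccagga
Atp6v0d1 (chr8:105566035-105566094, minus strand): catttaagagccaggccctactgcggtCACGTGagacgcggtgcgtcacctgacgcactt
Atp6v0e (chr17:26676372-26676431, plus strand): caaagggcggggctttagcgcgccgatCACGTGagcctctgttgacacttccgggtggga
Atp6v0b (chr4:117887324-117887383, minus strand): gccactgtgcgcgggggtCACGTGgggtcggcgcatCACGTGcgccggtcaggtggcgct

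The capitals above mark CACGTG, counted on both strands. It was found in 8 of the 24 windows (33.3%), against 2349 of all 32851 RefSeq windows of the same length (7.15%). TCACGTGA, which contains it, was found in 5 windows (20.8%), against 0.974% of all windows, and TCATGTGA, which does not, in 2 (8.33%), those of Ctss and Atp6v0c, against 0.986%. The genes with TCACGTGA were Ctsa, Ctsd, Atp6v0d1, Atp6v1a and Atp6v0e. Ctsf holds the shorter motif and was lower in GM-CSF, so the letters and the direction did not go together in every gene. A match describes the window only. Atp6v0a2, Atp6v0c-ps2, Atp6v1b2, Atp6v1c1, Atp6v1g1, Atp6v1h, Ctsb, Ctse, Ctsh and Ctsw had no window in the table.

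Depth was similar across the libraries, from 25603392 to 28622690 reads. Levels are the deposited normalised reads, in which each library's read counts were scaled by its own factor. Ratios between a pair of libraries carry 95% exact intervals on read pairs, which cover counting error only. Log2 folds were taken on log2(value + 5). The macrophage markers written for the check were at 20 or more in 10 of 10 measured rows in both cultures, among them the M-CSF receptor Csf1r at 33103 and 33549.6 in the db/db and db/+ GM-CSF libraries and 105159 and 120627 in the M-CSF libraries. The GM-CSF libraries of the opposite genotypes lay close to counting error: for rows with a mean of 200 to 1000, the mean squared deviation between them, in units of the variance that counting pairs gives, was 1.09, against 7.01 between the M-CSF libraries. For the 30 genes described here, whose counts are mostly larger, the same quantity was 4.70 in the GM-CSF pair and 47.8 in the M-CSF pair. The values do not show whether the GM-CSF libraries are separate cultures of opposite genotypes, and if they are not, their genotype ratios compare repeats of 1 culture and the limma residual is too small. Calls among the 30 genes that were lost without a library are given beside the call.

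GM-CSF cultures held more transcripts of the pump and of most cathepsins than M-CSF cultures, in both genotypes. Cathepsin transcripts took 5.11% of all reads in db/db and 5.12% in db/+ GM-CSF cultures, against 2.26% in db/db and 2.40% in db/+ M-CSF cultures. The 95% Wilson intervals, on read pairs, were 5.10% to 5.13% in db/db and 5.10% to 5.13% in db/+ GM-CSF, and 2.26% to 2.27% in db/db and 2.39% to 2.41% in db/+ M-CSF. Pump and accessory transcripts, without the pseudogene row Atp6v0c-ps2, took 0.620% and 0.623% of reads in the db/db and db/+ GM-CSF libraries and 0.383% and 0.395% in the db/db and db/+ M-CSF libraries. Both groups of genes took a larger share of each GM-CSF library than of either M-CSF library. Ctsd alone took 2.50% of the reads in each GM-CSF library against 0.627% and 0.680% in the db/db and db/+ M-CSF libraries.

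**Figure D1:**
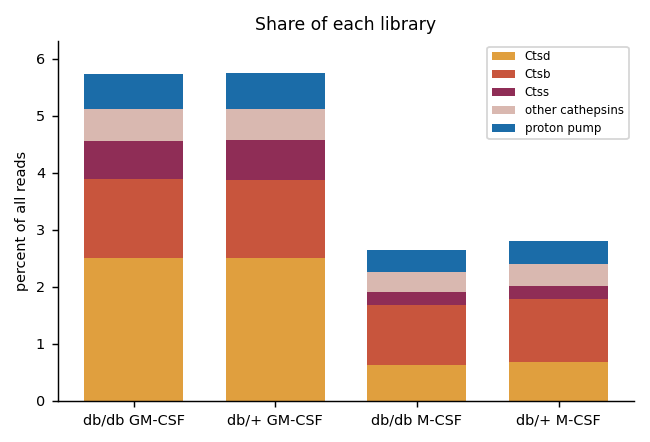
Share of all reads in each library (vertical axis, percent; 1 bar per library) taken by Ctsd, Ctsb, Ctss, the other cathepsins and the proton pump with its accessory genes. Ctsd alone takes 2.50% of each GM-CSF library and under 0.7% of each M-CSF library.

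Culture type was tested with limma on an additive model of culture and genotype over all 13642 rows kept, with Benjamini-Hochberg adjusted p-values. Of the 30 genes, 24 passed with higher levels in GM-CSF, where 29.8% of all rows did. Lower levels passed for 3 of the 30, against 27.3% of all rows, and 3 genes did not pass. The median log2 difference of the 30 was 0.86, against 0.02 over all rows. At least 2-fold higher levels in GM-CSF were seen for 14 of 30 genes in db/db marrow, where 11.3% of all rows were, and for 10 of 30 in db/+ marrow, against 12.0% of all rows. No gene of the 30 was at least 2-fold lower in either genotype, against 15.8% of all rows in db/db and 15.7% in db/+. The normalisation bears on these figures: with each library rescaled to an equal sum, the median culture difference over all rows moved by -0.34 on the log2 scale, and the median of the 30 was 0.52 against -0.32 over all rows. Under that scaling 23 genes passed higher, as did 16.7% of all rows, and 3 passed lower. In db/db marrow 7 of 30 then lay at least 2-fold above their M-CSF level, as did 7.96% of all rows, and 1, Ctsf, lay at least 2-fold below it. The shares of all rows that passed lower or lay 2-fold below under that scaling are not given here. These falls therefore cannot be set against all rows.

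**Figure D2:**
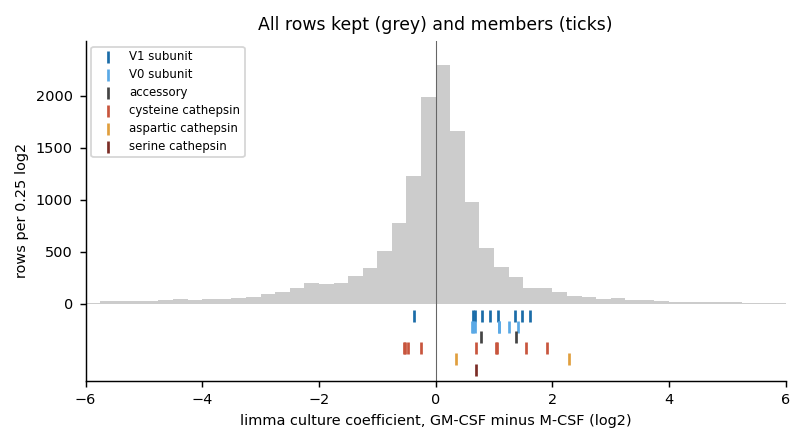
Distribution of the limma culture coefficient (horizontal axis, log2, GM-CSF minus M-CSF) over all 13642 rows kept (grey bars, rows per 0.25 log2; 112 rows lie outside the range shown), with 1 tick for each pump or cathepsin gene, coloured by role. Most ticks lie right of 0, and 5 genes lie left of it.

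Among the V1 subunits, 8 of the 9 genes kept rose in GM-CSF, and the size differed between subunits. Atp6v1a encodes subunit A, which holds the catalytic sites. It stood at 29689.8 and 29379.6 normalised reads in the db/db and db/+ GM-CSF libraries, against 18503 and 18511 in the db/db and db/+ M-CSF libraries. Both GM-CSF libraries lay above both M-CSF libraries, with a log2 difference of 0.67 and an SE of 0.10 (limma adjusted p = 2.76e-05). Here and below, a lack of overlap between the cultures describes 2 libraries against 2. The share of all rows without overlap was not counted, so it adds no support to the limma values. Atp6v1b2 encodes the widespread isoform of subunit B, which alternates with A in the ATP-hydrolysing ring. It was at 26574 and 27005 in the GM-CSF libraries and at 10360.3 and 10585 in the M-CSF libraries, in the same order of genotypes. The groups did not overlap, and the log2 difference was 1.35 (SE 0.09, adjusted p = 8.14e-09).

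The largest V1 difference was that of Atp6v1c1, the gene of subunit C, which joins V1 to V0 and leaves when the pump disassembles. Its level was 13748 and 13678 in db/db and db/+ GM-CSF cultures, against 4542 and 4389 in db/db and db/+ M-CSF cultures. The GM-CSF over M-CSF ratio was 3.03 in db/db (interval 2.89 to 3.17) and 3.12 in db/+ (2.97 to 3.27), and the log2 difference was 1.62 (SE 0.08, adjusted p = 4.38e-10). Subunit E of the outer stalk, from Atp6v1e1, was at 10955 and 10437 in the GM-CSF libraries, against 3866 and 3795 in the M-CSF libraries. This was nearly as large a difference, at 1.48 log2 (SE 0.08). Subunit G, the partner of E in that stalk, comes from Atp6v1g1, which was at 4766 and 4570.4 in GM-CSF and 2486 and 2426 in M-CSF. Its log2 difference was 0.92 (SE 0.08), and each GM-CSF library was higher than each M-CSF library for both stalk genes.

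The subunits of the central shaft, D and F, and the regulatory subunit H had smaller differences than C and E. Atp6v1d was at 3939.6 and 3832 in the db/db and db/+ GM-CSF libraries and at 1748 and 1981 in the db/db and db/+ M-CSF libraries. Atp6v1f was at 3416 and 3436 in GM-CSF and 2119 and 2301 in M-CSF. Atp6v1h was at 4389 and 4649 in GM-CSF and 2779 and 2435 in M-CSF. Levels did not overlap between the cultures for any of the 3, and the log2 differences were 1.06, 0.63 and 0.80, in the order D, F, H, all with an SE of 0.09. Their adjusted p-values in limma lay between 1.15e-07 and 1.7e-05.

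V1 isoforms of restricted tissues were scarce in all libraries. Atp6v1g2, the isoform of subunit G that is abundant in nerve cells, was at 34.4 and 41.5 in the db/db and db/+ GM-CSF libraries, against 34.8 and 72.3 in the db/db and db/+ M-CSF libraries. Its 4 values overlapped between the cultures, and it did not pass (log2 difference -0.37, adjusted p = 0.378). Below the minimum of 20 were Atp6v1c2, which came closest to it at 16.1 in db/db GM-CSF, Atp6v1b1 of kidney and inner ear with at most 6.7, Atp6v1g3 with at most 2.2, and Atp6v1e2, the isoform of testis, at 0 throughout. A count of 0 allows up to 6.45 and 6.73 normalised reads in the db/db and db/+ GM-CSF libraries and up to 5.23 and 5.71 in the db/db and db/+ M-CSF libraries, which is 3 read pairs.

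In the V0 sector all 7 rows kept rose in GM-CSF. The ring that carries protons is built of subunits c and c'', from Atp6v0c and Atp6v0b. Atp6v0c was at 26164 and 26328 in the db/db and db/+ GM-CSF libraries and at 11324 and 13657 in the db/db and db/+ M-CSF libraries, with a log2 difference of 1.08 (SE 0.10, adjusted p = 2.58e-07). The row Atp6v0c-ps2 held nearly the same numbers, 26128 and 26299.8 in GM-CSF and 11298 and 13615 in M-CSF. The suffix marks a pseudogene copy, and reads of a near-identical copy cannot be assigned, so these 2 rows are 1 observation. Leaving the pseudogene row out gave 13 of 29 genes past 2-fold in db/db marrow, 10 of 29 in db/+ marrow, and 23 that rose in limma. Atp6v0b was at 8239.5 and 8248 in GM-CSF and 4816 and 5787 in M-CSF, a smaller difference of 0.64 (SE 0.09).

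Atp6v0d1, the widespread isoform of the subunit that couples the shaft to the ring, was at 8857 and 8689 in the db/db and db/+ GM-CSF libraries, against 3492 and 3884 in the db/db and db/+ M-CSF libraries. The small subunit e, from Atp6v0e, was at 7077 and 6578 in GM-CSF and 2536 and 2580.5 in M-CSF. These had the largest V0 differences, at 1.25 and 1.41 log2 with an SE of 0.09 and 0.08, and neither overlapped between cultures. The alternative isoform Atp6v0d2, counted with osteoclast genes and not among the 30, was at 43371 and 41789 in the GM-CSF libraries and 2036 and 1734 in the M-CSF libraries, so d1 had more reads than d2 in M-CSF and fewer in GM-CSF.

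Subunit a forms the proton half-channels and directs the pump to its membrane. Atp6v0a1 was at 8638 and 8764 in db/db and db/+ GM-CSF cultures, against 5459 and 5889 in db/db and db/+ M-CSF cultures. Atp6v0a2, the isoform known from endosomes and the Golgi, was at 1665 and 1628 in GM-CSF and 1053 and 1008 in M-CSF. Both rose, by 0.62 (SE 0.08) and 0.67 (SE 0.10) log2, with adjusted p-values of 1.67e-05 and 2.63e-05. Tcirg1 encodes the a3 isoform of lysosomes and osteoclasts and does not carry the family's symbol. It was at 23637 and 23091 in the GM-CSF libraries and 8735 and 11618 in the M-CSF libraries, a log2 difference of 1.21 (SE 0.11, adjusted p = 1.92e-07). The kidney isoform Atp6v0a4 stayed at or under 3.8 in every library and Atp6v0e2 at or under 7.6.

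Both accessory genes kept rose in GM-CSF. Atp6ap1, which guides assembly of V0, was at 21157 and 21005 in the db/db and db/+ GM-CSF libraries and at 12222 and 12509 in the db/db and db/+ M-CSF libraries. Atp6ap2, also known as the prorenin receptor, was at 11600.3 and 11736 in GM-CSF and 4639.9 and 4375 in M-CSF. Both were higher in each GM-CSF library than in each M-CSF library, by 0.77 (SE 0.09) and 1.37 (SE 0.08) log2. Atp6ap1l was at most 1.9.

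**Figure D3:**
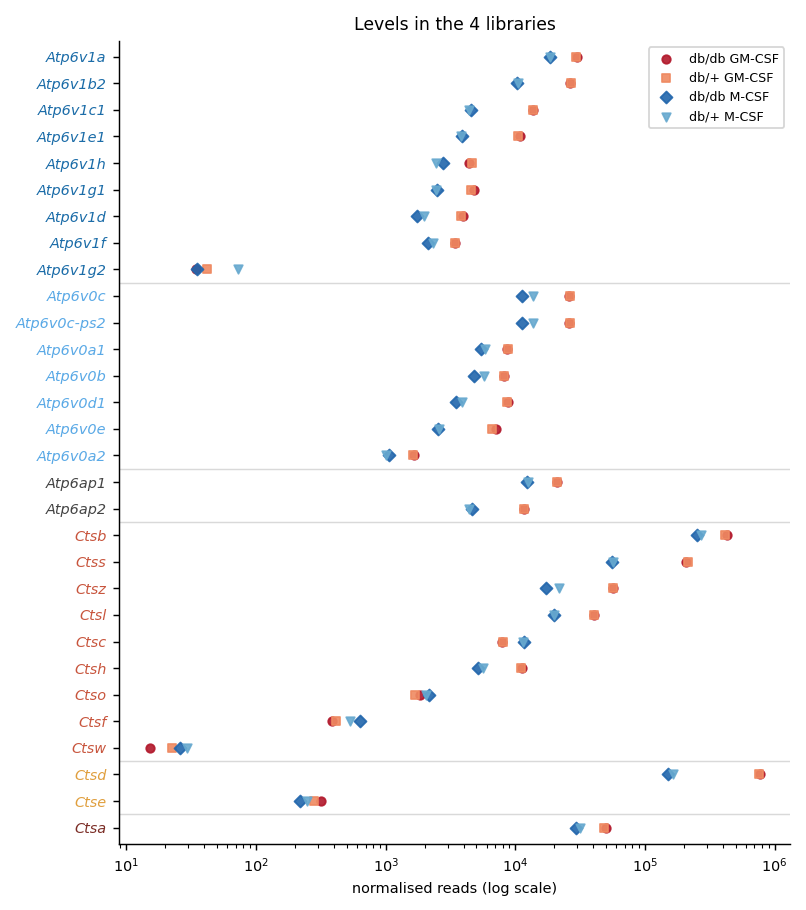
Normalised reads (horizontal axis, log scale) of the 30 genes kept, with 1 point per library and gene names coloured by role. For most genes the GM-CSF points lie right of the M-CSF points, and for Ctsc, Ctso, Ctsf and Ctsw they lie left of them.

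The largest culture difference of the 30 genes was that of Ctsd. It encodes cathepsin D, the main aspartic endoprotease of lysosomes. Ctsd was at 770735 and 763006 normalised reads in the db/db and db/+ GM-CSF libraries, against 150673 and 165680.0 in the db/db and db/+ M-CSF libraries. The groups did not overlap, and the GM-CSF over M-CSF ratio was 5.12 in db/db marrow (interval 5.08 to 5.15) and 4.61 in db/+ marrow (4.57 to 4.64). The log2 difference was 2.28 (SE 0.21, adjusted p = 3.24e-07). By number of reads Ctsd stood at rank 2 of all rows in both GM-CSF libraries and at ranks 10 and 9 in the db/db and db/+ M-CSF libraries. The related Ctse, an aspartic protease of endosomes known from stomach and from antigen-presenting cells, was at 315 and 279 in GM-CSF and 217 and 248 in M-CSF. Those values did not overlap between the cultures, but Ctse did not pass limma (log2 difference 0.35, adjusted p = 0.101). Its GM-CSF over M-CSF ratio was 1.45 in db/db (1.14 to 1.86) and 1.12 in db/+ (0.872 to 1.45).

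Among the cysteine cathepsins, 5 of 9 rose and 3 fell in GM-CSF. Ctss encodes cathepsin S, which trims the invariant chain in antigen-presenting cells and stays active at neutral pH. It was at 207729 and 213517 in the db/db and db/+ GM-CSF libraries, against 55693 and 56563 in the db/db and db/+ M-CSF libraries, with ratios of 3.73 in db/db and 3.77 in db/+. Its log2 difference, 1.91 (SE 0.14, adjusted p = 2.99e-08), was the largest of the cysteine cathepsins. Ctsz, a carboxypeptidase also called cathepsin X, was at 57062 and 56589 in GM-CSF and 17193 and 21779 in M-CSF. It differed by 1.55 log2 (SE 0.11), with no overlap.

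Ctsl, an endoprotease of lysosomes, was at 40576 and 40547 in the db/db and db/+ GM-CSF libraries and at 19841 and 19988 in the db/db and db/+ M-CSF libraries. Ctsh, an aminopeptidase, was at 11345 and 11019.5 in GM-CSF and 5144 and 5629.9 in M-CSF. Both rose, with log2 differences of 1.03 (SE 0.10) and 1.05 (SE 0.09), and adjusted p-values of 5.28e-07 and 8.01e-08. Ctsb, an endoprotease that also removes dipeptides from the end of proteins, was at 426616 and 418120.0 in GM-CSF and 251218 and 269266 in M-CSF. Its log2 difference of 0.70 had a wider SE of 0.21 and an adjusted p of 0.0101. That call was lost without the db/db GM-CSF library (adjusted p = 0.103), without the db/+ GM-CSF library (0.0947) and with an equal sum in each library (0.0898). Ctsa, a serine carboxypeptidase that also protects other lysosomal enzymes, was at 50204 and 48405 in GM-CSF and 29599.6 and 31447 in M-CSF, a log2 difference of 0.69 (SE 0.11, adjusted p = 7.2e-05).

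The cathepsins that fell in GM-CSF were Ctsc, Ctsf and Ctso. Ctsc encodes dipeptidyl peptidase I, which activates the serine proteases of neutrophil and lymphocyte granules. It was at 7924 and 8020.4 in the db/db and db/+ GM-CSF libraries, against 11632 and 11508 in the db/db and db/+ M-CSF libraries. Its ratio was 0.681 in db/db (0.654 to 0.709) and 0.697 in db/+ (0.669 to 0.727), a log2 difference of -0.54 (SE 0.08, adjusted p = 7.34e-05). Neutrophil markers moved with it: 9 of 9 measured rows fell in GM-CSF, against 27.3% of all rows. Their summed level was 915 and 784 in the db/db and db/+ GM-CSF libraries and 16755 and 15984 in the db/db and db/+ M-CSF libraries. Mpo, a defining granule gene, was at 0 and 1.1 in GM-CSF. Their part in the Ctsc difference was not tested.

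Ctsf was at 385 and 417 in the db/db and db/+ GM-CSF libraries, against 629 and 533 in the db/db and db/+ M-CSF libraries. Ctso was at 1843 and 1699 in GM-CSF and 2149.6 and 2046 in M-CSF. Neither gene overlapped between the cultures, but the differences were modest, -0.52 (SE 0.14, adjusted p = 0.00487) and -0.24 (SE 0.09, adjusted p = 0.0288) log2. Both calls were lost when single libraries were left out. Ctsf had adjusted p-values of 0.102 without the db/db GM-CSF library, 0.0566 without the db/+ GM-CSF library and 0.0648 without the db/db M-CSF library. For Ctso they were 0.104 without the db/db GM-CSF, 0.284 without the db/+ GM-CSF, 0.111 without the db/db M-CSF and 0.0683 without the db/+ M-CSF library. With no variance trend in the limma fit, 1 of the 9 cysteine cathepsins passed lower in GM-CSF, against 3 in the main test. Ctsw, known from cytotoxic lymphocytes, was at 15.1 and 22.4 in GM-CSF and 26.1 and 29.5 in M-CSF and did not pass (adjusted p = 0.345). The 9 cathepsins known from rodent placenta, Cts3, Cts6, Cts7, Cts8, Ctsj, Ctsll3, Ctsm, Ctsq and Ctsr, lay between 0 and 2.8; they resemble each other closely, so their few reads are uncertain. Of the cathepsins not among the 30, Ctsk of osteoclasts was at 10338 and 10565 in GM-CSF and 411 and 179.8 in M-CSF, and Ctsg of neutrophil granules at 2.2 and 0 in GM-CSF and 101 and 98.9 in M-CSF.

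**Figure D4:**
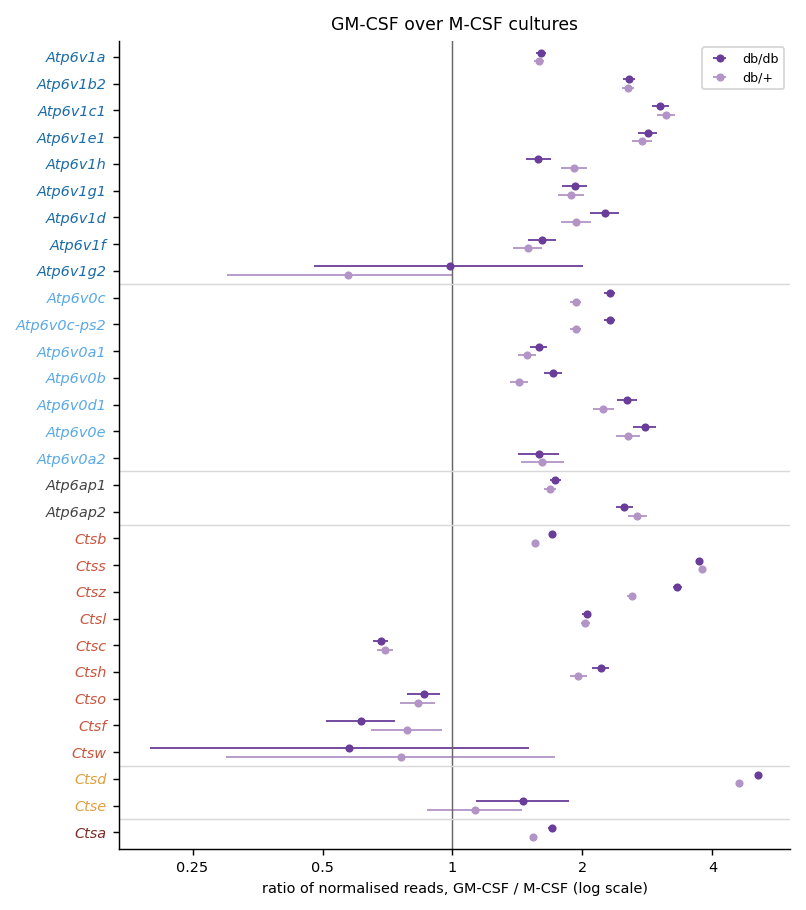
Ratio of normalised reads, GM-CSF over M-CSF (horizontal axis, log scale), for db/db marrow (dark) and db/+ marrow (light), with 95% exact counting intervals. The ratios reach 5.12 for Ctsd in db/db marrow, and those of Ctsc, Ctsf, Ctso, Ctsw and Atp6v1g2 lie below 1 in both genotypes.

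Per kilobase of gene model (GENCODE M21, which need not be the authors' annotation) the order of the cathepsins changed between the cultures. Ctsd was first in every library, at 362358 and 358724 normalised reads per kilobase in the db/db and db/+ GM-CSF libraries and 70838 and 77894 in the db/db and db/+ M-CSF libraries. Ctss came next in GM-CSF at 152967 and 157229 per kilobase, ahead of Ctsb at 89947 and 88155. In M-CSF Ctsb at 52966 and 56771 per kilobase stood ahead of Ctss at 41011 and 41652. With 1 library per group these orders have no spread of their own.

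Other lysosomal genes were counted from lists. In these lists a gene rose or fell if it passed limma for culture, as 29.8% of all rows did upward and 27.3% downward. Those shares are for the deposited scaling. With an equal sum in each library the upward share is the one given above, and the downward share is not given. Of 36 genes listed as hydrolases, 22 rose and 7 fell in GM-CSF, with a median log2 difference of 0.47, against 0.02 for all rows. That list includes Gnptg, which did not pass and is counted again below among the genes that deliver hydrolases. Dpp7, a dipeptidyl peptidase, was at 6486 and 6303 in the db/db and db/+ GM-CSF libraries and 1458 and 1432 in the M-CSF libraries, and Gla, alpha-galactosidase A, at 10449 and 10139 in GM-CSF and 2854 and 2698 in M-CSF. In the other direction the heparan sulfatase gene Sgsh was at 659.5 and 628 in GM-CSF and 3122 and 3726 in M-CSF. Lgmn, the asparaginyl endoprotease that processes cathepsin precursors, also fell, at 16985 and 17898 in GM-CSF against 31865 and 36574 in M-CSF (log2 difference -0.97, adjusted p = 8.13e-07). The hydrolases moved in both directions, and with an equal sum in each library 17 rose and 10 fell.

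Of 27 membrane, activator and transport genes of the lysosome, 19 rose and 4 fell, or 15 and 5 with an equal sum in each library. Their median log2 difference was 0.63. When either GM-CSF library was left out, 16 rose and 2 fell. Psap, the precursor of the saposins that activate lipid hydrolases, was at 1056157 and 1057138 in the db/db and db/+ GM-CSF libraries and at 283377 and 340732 in the M-CSF libraries. Gm2a, the activator of ganglioside breakdown, was at 46330.2 and 44609.5 in GM-CSF and 6972 and 7469 in M-CSF, the largest difference of this list at 2.65 log2. Lamp1, a coat protein of the lysosomal membrane, was at 83837 and 79913 in GM-CSF and 51168 and 54669 in M-CSF, which is 0.63 log2. Of 9 genes that deliver hydrolases to the lysosome 6 rose and 0 fell, or 6 and 2 with an equal sum in each library. Among those that rose was the mannose 6-phosphate receptor gene Igf2r, at 11028 and 11126 in GM-CSF and 3478 and 3635 in M-CSF. Of 9 genes of pump assembly and of its TLDc-domain regulators, 4 rose and 4 fell, or 3 and 5 with an equal sum in each library. Dmxl2, part of a complex that assembles the pump, was at 5278 and 5693 in GM-CSF and 2415 and 2346 in M-CSF, while Rogdi, of the same complex, was at 203 and 201 in GM-CSF and 462 and 526 in M-CSF.

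Of the 6 protease inhibitor genes kept, 1 rose and 1 fell in GM-CSF, or 1 rose and 2 fell with an equal sum in each library. Cstb, the cytosolic inhibitor cystatin B, was at 13367 and 12933 in the db/db and db/+ GM-CSF libraries, against 3983 and 4277 in the db/db and db/+ M-CSF libraries (log2 difference 1.67, SE 0.09, adjusted p = 3.97e-10). Cst3, the secreted cystatin C, was at 24002 and 23524 in GM-CSF and 22773 and 29593 in M-CSF and did not pass (adjusted p = 0.349). Cst7, cystatin F of endosomes, was at 88.2 and 53.8 in GM-CSF and 47 and 61.8 in M-CSF and did not pass either. The stefin cluster rows Stfa1, Stfa2, Stfa2l1, Stfa3 and BC100530 stayed under 20 in each library. The gene that fell was Serpinb6a, at 8010.4 and 8302 in GM-CSF and 13077 and 13200.1 in M-CSF, a serpin known as an inhibitor of serine proteases.

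Transcription factors of the TFEB family also differed in direction. Tfec, the member found mainly in macrophages, was at 2751 and 2724 in db/db and db/+ GM-CSF cultures and at 793 and 766 in db/db and db/+ M-CSF cultures, a log2 difference of 1.81 (SE 0.09, adjusted p = 4.44e-10). Tfeb was at 1485 and 1314 in GM-CSF and 803 and 1103 in M-CSF (0.57, adjusted p = 0.00176), and Mitf at 5277 and 4951 in GM-CSF and 3662 and 3911 in M-CSF (0.43, adjusted p = 0.000566). Tfe3 fell, at 1018 and 1019.5 in GM-CSF and 1424 and 1724 in M-CSF (-0.62, adjusted p = 0.000122). Across the 15 measured genes of this family and of nutrient sensing at the lysosome, 10 rose and 3 fell. That count was sensitive: 6 rose without the db/+ GM-CSF library, and 4 rose and 4 fell with an equal sum in each library. RNA levels do not show where these factors are in the cell.

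Markers of other cells moved with culture type as well, counted by the same limma calls, which 29.8% of all rows passed upward and 27.3% downward. Those shares are for the deposited scaling only. Stromal markers fell in GM-CSF in 11 of 11 rows kept, with summed levels of 336 and 302 in db/db and db/+ GM-CSF and 73505 and 26646 in db/db and db/+ M-CSF. Osteoclast markers rose in 6 of 7 rows kept, with summed levels of 66577 and 65006 in GM-CSF and 4968 and 4247 in M-CSF. The larger part of these GM-CSF sums was Atp6v0d2, at 43371 and 41789, with Ctsk next at 10338 and 10565. Both are the pump and cathepsin rows that the selection by symbol left out, so these sums mostly repeat the same gene families. Outside those families, Acp5 was at 7649 and 7305 in GM-CSF and 320 and 404 in M-CSF. The defining marker Calcr was at 0 in all 4 libraries. Of the GM-CSF culture and dendritic markers 8 of 10 rose and 1 fell, or 5 and 1 without the db/+ GM-CSF library and 6 and 2 with an equal sum in each library, with summed levels of 61777 and 61721 in GM-CSF and 1296 and 1141 in M-CSF. Itgax made up most of those GM-CSF sums, at 56259 and 56042 in GM-CSF and 921 and 775 in M-CSF. The row that fell in the main test was Flt3, at 0 in both GM-CSF libraries and at 76.7 and 53.3 in M-CSF. Macrophage markers rose in 1 and fell in 7 of 10 rows, with summed levels of 144005 and 138791 in GM-CSF and 381504 and 414492 in M-CSF. B cell markers fell in 3 of 4 rows kept, or 1 of 4 when either GM-CSF library was left out, with sums of 21.6 and 37.1 in GM-CSF and 249 and 259 in M-CSF. Erythroid markers fell in 2 of 2 rows kept, or 1 of 2 when either was left out, with sums of 14 and 11.2 in GM-CSF and 199 and 122 in M-CSF. Of 4 mast cell and basophil rows kept 1 rose and 2 fell, with sums of 2578 and 2631 in GM-CSF and 266 and 238 in M-CSF. Most of the GM-CSF sums came from Kit, the row that rose, at 2540 and 2614 in GM-CSF and 106.3 and 105.6 in M-CSF. The rows that fell were Mcpt8, at 0 and 1.1 in GM-CSF and 86.3 and 73.2 in M-CSF, and Cpa3. Cpa3 was at 7.5 and 3.4 in GM-CSF and 46.2 and 39.9 in M-CSF. Of 2 T and NK cell rows kept 1 rose, with sums of 66.7 and 57.2 in GM-CSF and 21.7 and 34.3 in M-CSF. The part of all these markers in the differences of the pump and cathepsin genes was not tested.

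No gene of the 30 passed the test for genotype. On the log2(value + 5) scale, 0 of the 30 were at least 2-fold apart between db/db and db/+ in M-CSF, where 5.83% of all rows were, or in GM-CSF, where 1.06% were. With a pseudocount of 1 the M-CSF count was 1, Atp6v1g2, a gene with few reads. In limma 0 of 30 passed for genotype, against 0.00733% of all rows. At an unadjusted limma p under 0.05 there were 0 of 30, against 603 of all 13642 rows. At that share few of the 30 would be called. The edgeR test also passed 0 of 30, and its share of all rows is given with the processing. The median absolute log2 fold of the 30 was 0.10 between the M-CSF libraries, against 0.17 over all rows, and 0.03 between the GM-CSF libraries, against 0.09 over all rows. A p that misses the threshold with 1 library per group does not show equal levels.

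Within M-CSF, db/db levels were lower than db/+ levels for 21 of the 30 genes and for 6256 of all 13642 rows. The median log2 fold was -0.06 for the 30 genes, against 0.02 over all rows. The counting interval of the ratio lay below 1 for 13 of the 30 rows, where 14.3% of all rows did, and above 1 for 3, where 19.8% of all rows did. Without the pseudogene row it lay below 1 for 12 of 29. The intervals narrow with abundance. Ctsz was at 17193 in db/db and 21779 in db/+, a ratio of 0.789 (0.768 to 0.811). Atp6v0c was at 11324 in db/db and 13657 in db/+ (0.829, 0.802 to 0.858). The other ring subunit, Atp6v0b, was at 4816 in db/db and 5787 in db/+ (0.832, 0.79 to 0.877). These were the farthest below 1 apart from Atp6v1g2, which had 34.8 in db/db and 72.3 in db/+ on few reads (ratio 0.482, 0.266 to 0.85). Ctsd, at 150673 in db/db and 165680.0 in db/+, had a ratio of 0.909 (0.901 to 0.918).

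The genes above 1 in db/db M-CSF were Atp6v1h at 2779 against 2435 in db/+ (ratio 1.14, 1.06 to 1.23), Ctsf at 629 against 533 (1.18, 1.01 to 1.39), and Atp6ap2 at 4639.9 against 4375 (1.06, 1.002 to 1.122). Markers of other cells differed in the same pair of libraries. Of 11 stromal marker rows kept, 10 had more reads in the db/db M-CSF library, 9 of them at least 2-fold. Of all 13642 rows, 7362 had more in db/db, 689 of them at least 2-fold. The summed level of the stromal markers was 73505 in db/db against 26646 in db/+. Macrophage markers were lower in 9 of 10 rows, with a summed level of 381504 in db/db against 414492 in db/+. The other lysosomal lists leaned the same way as the 30 genes. Fewer normalised reads in the db/db library were seen for 25 of 36 genes listed as hydrolases and 23 of 27 membrane, activator and transport genes. Of all 13642 rows, 6256 had fewer. The median log2 folds of the 2 lists were -0.06 and -0.14, against 0.02 over all rows. The part of these markers in the genotype values was not tested.

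Between the GM-CSF libraries 17 of the 30 genes were higher and 13 lower in db/db. Of all 13642 rows, 7148 were higher and 6269 lower. The median log2 fold was 0.01 for the 30 genes and 0.01 over all rows. The interval lay above 1 for 5 of the 30, where 4.28% of all rows did, and below 1 for 1, where 2.43% did. Atp6v0e was at 7077 in db/db and 6578 in db/+, a ratio of 1.08 (1.02 to 1.13), and Atp6v1e1 at 10955 in db/db and 10437 in db/+ (1.05, 1.01 to 1.09). Ctss was the gene below 1, at 207729 in db/db and 213517 in db/+ (0.973, 0.964 to 0.982). The counting intervals of abundant genes are so narrow that they can exclude 1 on small differences between libraries of any origin.

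**Figure D5:**
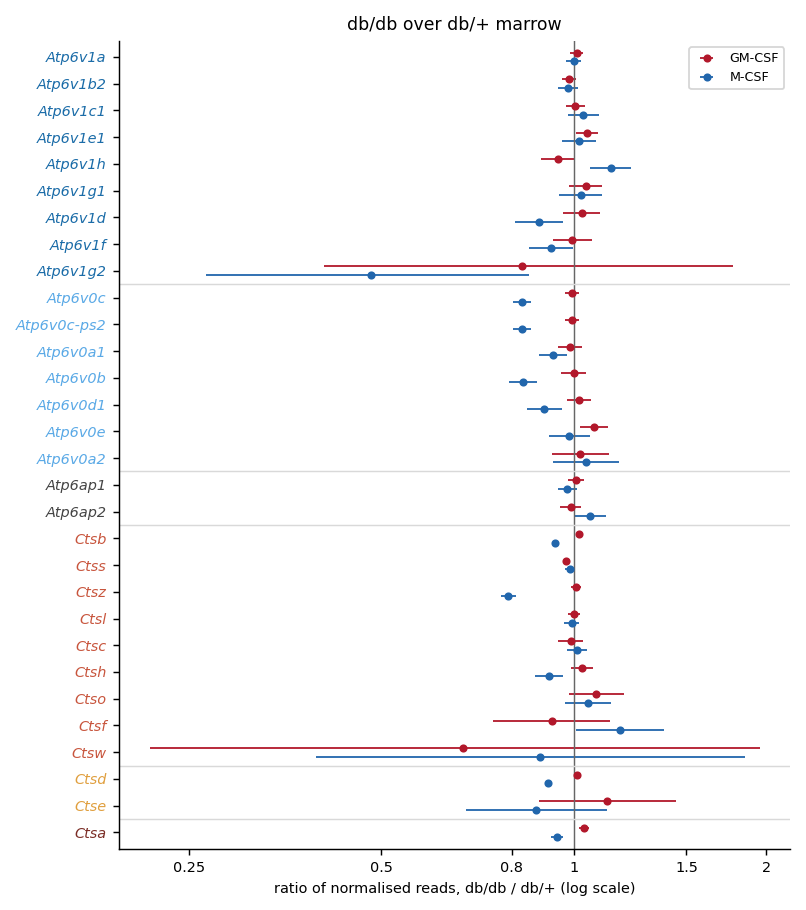
Ratio of normalised reads, db/db over db/+ (horizontal axis, log scale), in GM-CSF (red) and M-CSF (blue), with 95% exact counting intervals. The GM-CSF ratios of abundant genes lie close to 1, and the M-CSF ratios reach down to 0.789 for Ctsz among genes with many reads.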

How the data were processed

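Ribosomal RNA was removed from total RNA and paired-end libraries were sequenced, per the labels' protocols. The deposited files hold a signal per gene: read counts that the authors divided by a TMM size factor, by the files' name, rounded to 1 decimal. The tools listed in the submitters' processing notes are edgeR and TopHat 1.2.0; the notes list both mm8 and mm9 and do not say what each was for. Counting tool, annotation and strandedness: not given in the sources used here. No per-sample column was left unused (0 columns).

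Whole reads were recovered by dividing by the step of 1 read (1.08, 1.12, 0.871 and 0.951 in db/db and db/+ GM-CSF and db/db and db/+ M-CSF). With a tolerance of 0.1, 100% of low values and 99.4% to 99.8% of all values were whole. Even counts were commoner than odd at low counts, so intervals used read pairs. Reads copied by PCR are not separate molecules, so intervals cover counting error only.

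The main test was limma 3.58.1 (R 4.3.3; additive model, variance trend, log2(value + 5), rows with 20 or more in a library, Benjamini-Hochberg threshold 0.05, two-sided), with 1 residual degree of freedom and a prior of 12.9. No interaction could be tested. The edgeR 4.0.16 quasi-likelihood test on recovered reads called 27 of the 30 genes for culture, at 57.5% of all rows, and 0 for genotype, at 1.11% of all rows. Both were run on simulated culture changes larger than those of most of the 30 genes, with the same scatter in every library. In the data the M-CSF pair lay farther apart than the GM-CSF pair, so the simulation does not show how these tests perform here. No genotype change was simulated, so how often these tests would find one is not known. Pairs of libraries have no test; a pair was called at 2-fold. Intervals were exact conditional binomial or Wilson (scipy 1.17.1).

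The members and lists were chosen with earlier results of these data known. Values are given for every gene that passed, that was 2-fold apart in any pair, or that was among the 2 most abundant of its role; of other lists, a few with the largest culture coefficients and fixed names. Alternatives were other pseudocounts, level minimums, scalings and models, and leaving out each library.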

Additional observations from a re-analysis of the deposited data

Results flagged for a closer look

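For 3 genes the db/db over db/+ ratio lay above 1 in GM-CSF and below 1 in M-CSF, with counting intervals that excluded 1 in both. The difference between the cultures was not tested, since each genotype ratio rests on 1 pair of libraries. Ctsb had a ratio of 1.02 (1.01 to 1.03) in GM-CSF and 0.933 (0.926 to 0.94) in M-CSF, a gap of 0.13 in log2 fold. Ctsd had 1.01 (1.005 to 1.015) in GM-CSF and 0.909 (0.901 to 0.918) in M-CSF, a gap of 0.15. Ctsa had 1.04 (1.02 to 1.06) in GM-CSF and 0.941 (0.921 to 0.962) in M-CSF, a gap of 0.14.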

How the results depend on the processing

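No paired analysis was possible because each group had 1 library and the labels carry no replicate numbers. The 27 genes passing limma for culture became 24 to 26 when any 1 library was left out of a model of culture alone, and the 0 passing for genotype stayed at 0. With no level minimum, limma passed 0 genes for culture, and 0 of all rows, with the smallest adjusted p among the 30 at 0.0628; the cause was not tested. Under the other settings run, the culture count lay between 25 (no variance trend) and 27. The 14 genes at least 2-fold apart in db/db marrow became 8 with an equal sum in each library, 7 of them higher, and that scaling moved the log2 median of all rows by -0.36. The 10 of db/+ marrow lay between 9 and 11, a range that counts both directions. With an equal sum in each library it included Atp6v1g2, which was lower in GM-CSF. With no level minimum it included Atp6v1b1, also lower and with few reads. Between the M-CSF libraries the count of 0 became 1 with a pseudocount of 1 (Atp6v1g2). No culture coefficient that passed changed its sign under an alternative run here. Genes with few reads, such as Ctsw and Atp6v1g2, are limited by depth.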
